A study of Equus asinus with 6 samples.

Results

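The subunits of the transcription factor NF-kB and the proteins that hold it in check were examined in donkey skeletal muscle through their transcripts. The 10 genes, chosen by name, were RELA, RELB, REL, NFKB1, NFKB2, NFKBIA, NFKBIE, NFKBIZ, BCL3 and TNFAIP3, and all 10 were found among the 20873 genes of the deposited count table, each on 1 row. The RNA was of longissimus dorsi, which runs along the spine, in donkeys of the Chinese Guangling breed, all aged 24 months. Muscle of high intramuscular fat (IMF) content gave 3 libraries and muscle of low IMF content gave 3; no treatment is named for either group. The sources used here do not give the measured fat content, the rule for assigning animals, their sex, or whether each library came from its own animal. They name more than 1 sequencer, and no fit held a term for it. The p-values therefore cover only library-to-library spread, which may be partly technical.

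NF-kB is a family of dimers built from 5 subunits that share the Rel homology region, by which they bind DNA and each other. RELA, REL and RELB carry a region that activates transcription, whereas NFKB1 and NFKB2 encode long precursors whose ankyrin repeats act as built-in inhibitors until they are cut away. In the canonical route, a kinase complex activated by cytokines such as TNF marks the inhibitors NFKBIA and NFKBIE for destruction, which frees mainly RELA and NFKB1 dimers. In the noncanonical route, the kinase MAP3K14 drives the processing of NFKB2 and so frees its dimers with RELB. NFKBIA, TNFAIP3 and several subunit genes are themselves targets of NF-kB, so that the pathway feeds back on itself. In muscle, NF-kB activity is known from inflammation and wasting, and it is active in muscle fibres as well as in leukocytes, vessel cells and fat cells. The domain notes in the deposited table follow this division: they give the Rel homology dimerisation domain for RELA, RELB and REL, the death domain for NFKB1 and NFKB2, ankyrin repeats for NFKBIA, NFKBIE and BCL3, and an OTU-like cysteine protease for TNFAIP3.

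The libraries held between 39052998 and 47494157 assigned reads, and a gene of the family had between 233 and 4473 reads in a library, so that counting error alone lay between 6.55% and 1.50% of a count. Muscle fibre markers were abundant in every library, led by CKM and ACTA1, and of the 12 of 14 that were listed none was at 0. Levels are given in CPM, counts scaled to a common library size with the trimmed mean of M values (TMM). Together these markers made up 110831, 128493 and 210847 CPM in high IMF and 146899, 209791 and 200435 CPM in low IMF replicates 1 to 3. Low IMF replicates 2 and 3 were far closer to each other than any other pair of one group. Their biological coefficient of variation was 0.0697, against 0.357 to 0.472 for the other 5 within-group pairs, although a chi-square per degree of freedom of 7.70 showed them to differ by more than counting noise. The edgeR results of the family are therefore also given with these 2 libraries summed to 1. The DESeq2 calls, ratios, group separations and gene list counts have no such version and treat the 2 as separate libraries. Since the samples are pieces of whole muscle, fewer cells of a type and less RNA per cell cannot be told apart in any value that follows.

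Per unit of gene length, NFKBIA was the most abundant transcript of the family. In the deposited FPKM values (reads scaled by gene length and library size) it measured 30.3, 32.1 and 29.5 in high IMF and 60.7, 33.8 and 35.5 in low IMF replicates 1 to 3. It ranked first in 6 of 6 libraries, and its lowest library lay above the highest FPKM of RELA, the next in order. RELA averaged 19.6 ± 1.76 FPKM (SD over 6 libraries), NFKB2 15.0 ± 6.02, NFKB1 8.71 ± 1.69 and TNFAIP3 8.10 ± 2.62. Below them came BCL3 with 6.91 ± 1.29 FPKM, NFKBIE with 5.07 ± 1.46, REL with 3.25 ± 0.469, RELB with 1.91 ± 0.780 and NFKBIZ with 1.81 ± 0.866. From RELA downwards the ranges of neighbouring genes overlapped, yet NFKB2 exceeded NFKB1, BCL3 exceeded NFKBIE, NFKBIE exceeded REL, and REL exceeded RELB in 6 of 6 libraries. RELA exceeded NFKB2 in 5 of 6 libraries, the exception being high IMF replicate 2. The orders of NFKB1 against TNFAIP3, of TNFAIP3 against BCL3 and of RELB against NFKBIZ held in 4 of 6 libraries each, so these neighbours did not differ beyond their spread.

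**Figure D1:**
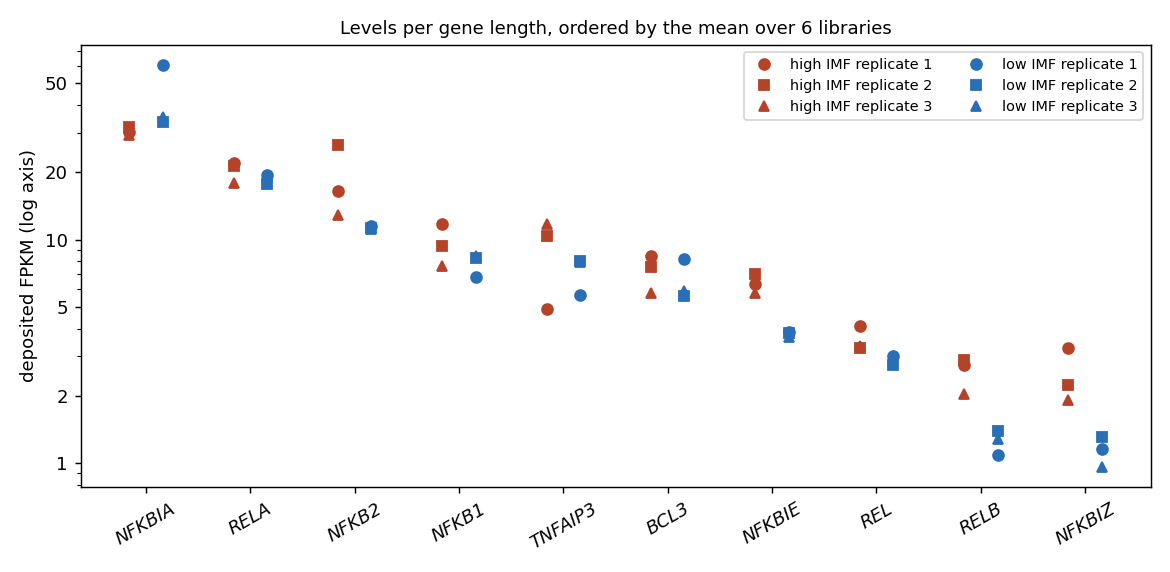
Deposited FPKM of the 10 genes on a log axis, ordered by the mean over 6 libraries; high IMF libraries stand left of low IMF libraries, and each point is 1 library. NFKBIA is highest in every library, and the points of RELB and NFKBIZ, the least abundant genes, lie higher in high IMF than in low IMF muscle.

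High IMF libraries were then set against low IMF libraries to see which transcripts of the pathway differ between fat-rich and lean muscle. RELB, NFKB2, NFKBIE and NFKBIZ had all 3 high IMF libraries above all 3 low IMF libraries in CPM, and NFKBIA had all 3 below. The groups of RELA, REL, NFKB1, BCL3 and TNFAIP3 overlapped. Groups were separate in 13.0% of all 15933 genes tested, 6.86% with high IMF above and 6.10% with high IMF below. All 10 genes passed the filter on low counts, and edgeR's quasi-likelihood test called 0 of them at an adjusted p under 0.05. That test called 0% of all genes tested, and limma-voom called 0 of the 10 genes and 0% of all. At an unadjusted p under 0.05, edgeR had 4 of the 10 higher and 1 lower in high IMF muscle, where the shares over all genes tested were 4.53% and 2.74% (7.27% in all). limma-voom had 5 of the 10 at that level and 6.97% of all genes. A positive log2 fold was found in 8 of the 10 genes and in 51.2% of all genes tested. The median log2 fold was 0.19 over the 10 genes and 0.01 over all genes tested. Because the genes were picked by name with earlier results of these data known, these counts are a description of the family.

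Among the subunits, RELB, the activating partner of NFKB2 in the noncanonical route, had the smallest p. It measured 11.8, 12.9 and 11.6 CPM in high IMF replicates 1 to 3, and 5.25, 7.64 and 6.88 CPM in low IMF replicates 1 to 3. The high IMF libraries lay close together, and the lowest of them was well above the highest low IMF library. The group values were 12.1 ± 0.683 and 6.59 ± 1.22 CPM (SD, n = 3 each), a fold of 1.83 (log2 fold 0.87, SE 0.21; edgeR unadjusted p = 0.00365, adjusted p = 0.51).

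NFKB2, the precursor of the noncanonical route, measured 43.4, 71.6 and 44.6 CPM in high IMF and 33.6, 37.9 and 36.3 CPM in low IMF libraries. The groups did not overlap, but high IMF replicate 2 stood far above the other high IMF libraries, which were near the low IMF range. The log2 fold was 0.57 (SE 0.22; edgeR unadjusted p = 0.0378, adjusted p = 0.642), and 0.27 without high IMF replicate 2 (unadjusted p = 0.14). Without low IMF replicates 1, 2 and 3 in turn the unadjusted p of NFKB2 was 0.104, 0.0733 and 0.0888, and with low IMF replicates 2 and 3 summed it was 0.0806.

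The subunits of the canonical route lay close in the 2 groups. RELA, the main activating subunit, measured 47.4, 47.3 and 50.4 CPM in high IMF and 46.6, 49.1 and 51.8 CPM in low IMF libraries. It was the steadiest gene of the family, with the highest library 1.11 times the lowest, and its log2 fold was -0.02 (SE 0.13; edgeR adjusted p = 0.986). NFKB1 measured 39.1, 32.3 and 33.4 CPM in high IMF and 25.5, 35.3 and 35.4 CPM in low IMF libraries, with low IMF replicate 1 lowest and the rest intermingled (log2 fold 0.12, SE 0.18). REL, a subunit best known from lymphocytes, measured 15.0, 12.3 and 16.1 CPM in high IMF and 12.4, 12.8 and 13.8 CPM in low IMF libraries, with high IMF replicate 2 the lowest of the 6 (log2 fold 0.16, SE 0.17).

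**Figure D2:**
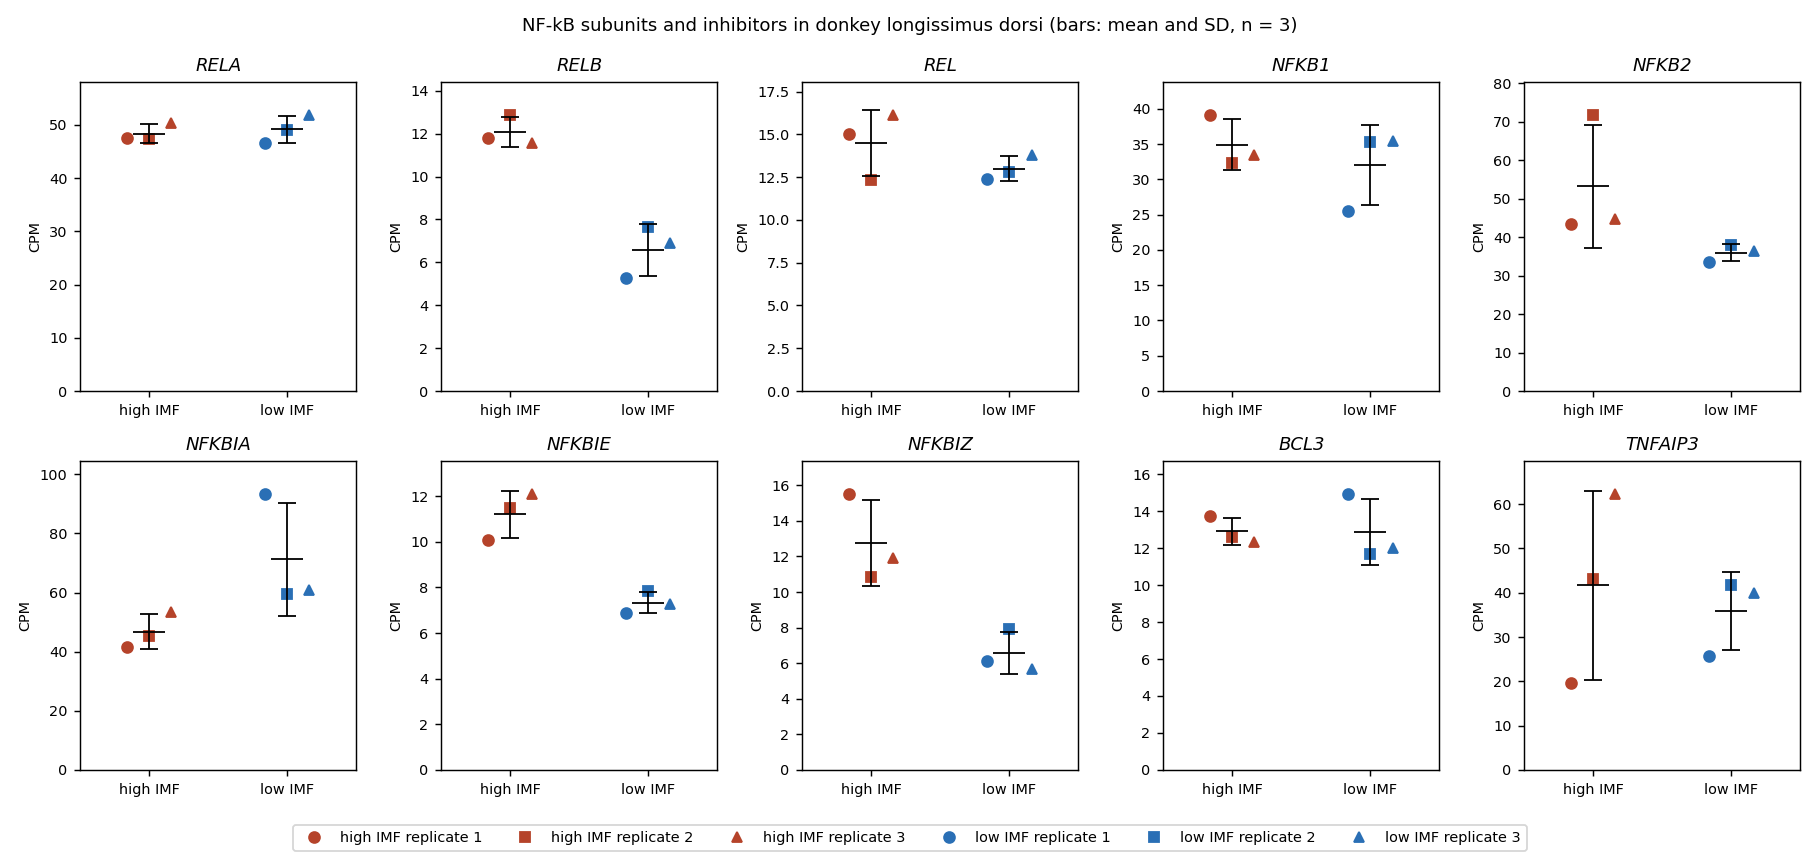
CPM of each gene in each library, with high IMF left of low IMF in every panel; points are libraries, and black bars give the mean and SD of 3. RELB, NFKB2, NFKBIE and NFKBIZ are separated upward and NFKBIA downward in high IMF muscle, whereas the other panels overlap.

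The balance among the subunits can be read within a library, where the scaling between libraries has no part. RELB made up 4.81%, 4.57% and 4.66% of the summed FPKM of the 5 subunits in high IMF and 2.60%, 3.35% and 2.96% in low IMF libraries. RELA made up 38.6%, 33.7% and 40.8% in high IMF and 46.4%, 42.9% and 44.7% in low IMF libraries. A share also depends on the other subunits, and RELA itself was not lower in high IMF muscle (20.4 ± 2.27 FPKM, and 18.9 ± 0.888 FPKM in low IMF). RELB and NFKB2 together came to 38.1% ± 7.16 in high IMF and 29.8% ± 0.985 in low IMF muscle. Their high IMF libraries stood at 33.8%, 46.4% and 34.2%, so that replicate 2 alone was far from the low IMF values of 30.0%, 30.6% and 28.7%. The shares of NFKB1 (17.5% ± 2.84 and 18.6% ± 1.97) and REL (6.66% ± 1.33 and 6.93% ± 0.312) were close in high and low IMF muscle.

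**Figure D3:**
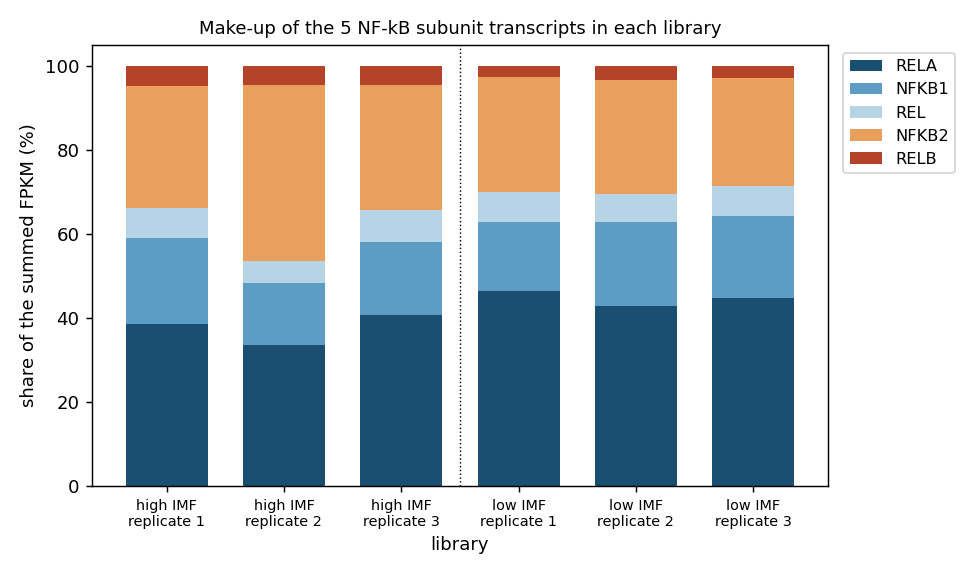
Share of each subunit in the summed FPKM of RELA, NFKB1, REL, NFKB2 and RELB, 1 bar per library, high IMF libraries on the left. RELB is the thinnest band in all 6 libraries and is wider in the 3 high IMF libraries, and high IMF replicate 2 has the largest NFKB2 band, 41.8%.

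Among the classical inhibitors, which keep NF-kB dimers in the cytoplasm, NFKBIA and NFKBIE lay on opposite sides. NFKBIA measured 41.7, 45.5 and 53.3 CPM in high IMF and 93.2, 59.5 and 61.0 CPM in low IMF libraries. The groups were separate, with a gap of a few CPM between high IMF replicate 3 and low IMF replicate 2, and low IMF replicate 1 stood far above the other 5 libraries. The log2 fold was -0.61 (SE 0.22; edgeR unadjusted p = 0.027, adjusted p = 0.623), and -0.38 without low IMF replicate 1 (unadjusted p = 0.0505). Dropping high IMF replicate 1 or 2 gave NFKBIA an unadjusted p of 0.067 or 0.0659.

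NFKBIE, the epsilon form, measured 10.1, 11.5 and 12.1 CPM in high IMF and 6.90, 7.83 and 7.27 CPM in low IMF libraries. Both groups were tight and the gap between them was wider than the range of either. The group values were 11.2 ± 1.03 and 7.33 ± 0.469 CPM (SD, n = 3 each), a fold of 1.53 (log2 fold 0.61, SE 0.18; edgeR unadjusted p = 0.011, adjusted p = 0.525). With any library left out its unadjusted p lay between 0.0118 and 0.0462.

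NFKBIZ and BCL3 are atypical members of the inhibitor family that act in the nucleus, where they bind NFKB1 or NFKB2 dimers and can turn target genes on. NFKBIZ measured 15.5, 10.9 and 11.9 CPM in high IMF and 6.11, 7.93 and 5.67 CPM in low IMF libraries, without overlap and with high IMF replicate 1 highest. Its fold of 1.94 was the largest of the family (12.8 ± 2.42 and 6.57 ± 1.20 CPM, SD, n = 3 each; log2 fold 0.96, SE 0.23; edgeR unadjusted p = 0.00395, adjusted p = 0.51). BCL3 measured 13.7, 12.6 and 12.3 CPM in high IMF and 14.9, 11.7 and 12.0 CPM in low IMF libraries. The groups of BCL3 were intermingled, with a log2 fold of 0.00 (SE 0.18), and its sign differed between settings.

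TNFAIP3 encodes A20, a ubiquitin-editing enzyme that shuts off signalling upstream of the kinase complex. It measured 19.7, 43.2 and 62.2 CPM in high IMF and 25.7, 41.8 and 40.0 CPM in low IMF libraries. High IMF muscle held both the lowest and the highest library, 3.16 times apart, the widest range of the 10 genes. Its log2 fold was 0.22 (SE 0.40; edgeR adjusted p = 0.953). Dropping high IMF replicate 1 gave 0.54, dropping high IMF replicate 3 gave -0.19 and dropping low IMF replicate 1 gave 0.01.

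Ratios of 2 family members within a library were compared by exact two-sided permutation over the 6 libraries; with 3 against 3 the smallest p that this test can give is 0.1. The ratio of NFKBIA to RELA in FPKM was 1.37, 1.50 and 1.65 in high IMF and 3.12, 1.89 and 1.84 in low IMF libraries. The groups were separate, and the geometric mean was 1.50 in high and 2.22 in low IMF muscle (exact permutation p = 0.1, adjusted over 4 ratios 0.133). The ratio of RELB to RELA was 0.125, 0.136 and 0.114 in high IMF and 0.0561, 0.0780 and 0.0663 in low IMF libraries, again separate (geometric means 0.125 and 0.0662; exact permutation p = 0.1, adjusted 0.133). NFKBIA exceeded RELB 11.0-, 11.1- and 14.4-fold in high IMF and 55.7-, 24.3- and 27.7-fold in low IMF libraries (exact permutation p = 0.1, adjusted 0.133). RELA was nearly level, its highest library 1.11 times its lowest. The separation of the ratios above therefore follows from the separate groups of NFKBIA and RELB and adds nothing to them. The ratio of NFKB2 to NFKB1 overlapped, with 1.42, 2.83 and 1.70 in high IMF and 1.68, 1.37 and 1.31 in low IMF libraries (exact permutation p = 0.2).

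The call of RELB and NFKBIZ depended on the tool. The DESeq2 Wald test, which called 1.16% of the genes with an adjusted p (0.680% higher, 0.477% lower), put NFKBIZ (adjusted p = 0.0474) and RELB (adjusted p = 0.0494) just inside the threshold, and the other 8 genes outside it. NFKBIE was the next of the 8 (DESeq2 adjusted p = 0.2). The authors' deposited table gave adjusted p-values of 0.0476 for NFKBIZ and 0.0497 for RELB with log2 folds of 0.947 and 0.865, below the smallest size of 1.008 that it marked as regulated, so it marked neither. Both genes stayed inside the DESeq2 threshold without high IMF replicate 3 (0.0393 for NFKBIZ and 0.0411 for RELB). Without any other single library DESeq2 called 0 of the 10 genes. With high IMF replicates 1 and 2 dropped in turn, RELB had DESeq2 adjusted p-values of 0.0892 and 0.283, and NFKBIZ of 0.154 and 0.0901. When low IMF replicates 1, 2 and 3 were dropped in turn, they were 0.0629, 0.12 and 0.294 for RELB, and 0.103, 0.0745 and 0.391 for NFKBIZ. In edgeR, RELB, NFKBIE and NFKBIZ were at an unadjusted p under 0.05 without each library in turn and with low IMF replicates 2 and 3 summed. With those libraries summed, 4 of the 10 genes were at that level (all but NFKB2 of the 5), beside 4.26% of all genes. Dropping high IMF replicates 1, 2 and 3 in turn left 4, 3 and 5 of the 10, beside 8.30%, 5.64% and 12.5% of all genes. Dropping low IMF replicates 1, 2 and 3 in turn left 3, 4 and 4, beside 9.11%, 4.32% and 4.60%.

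**Figure D4:**
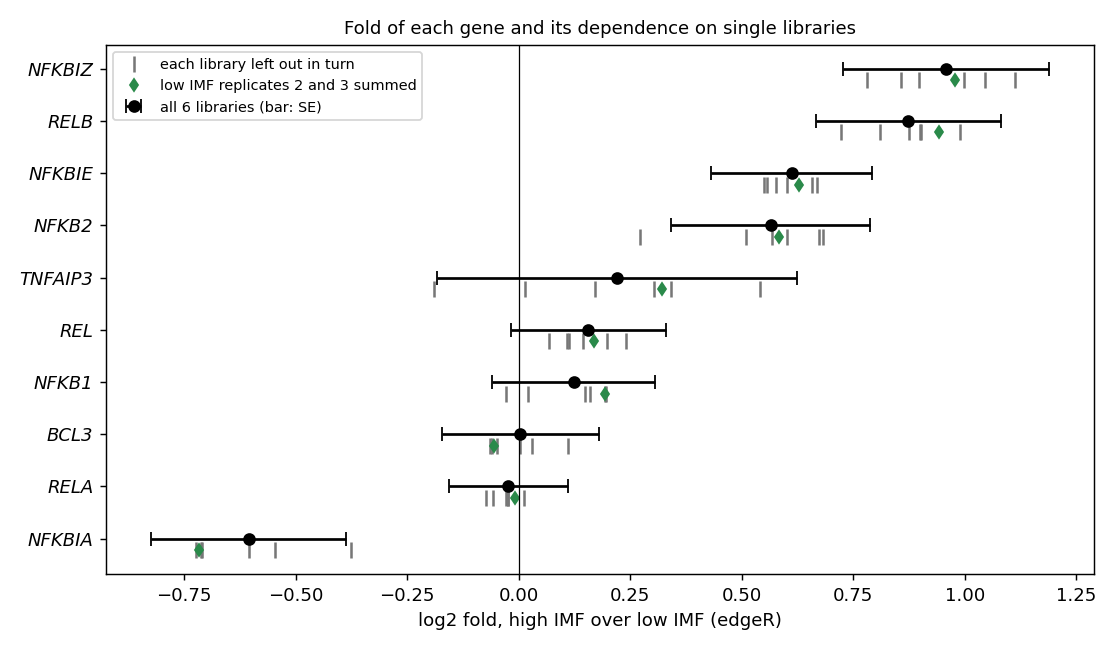
Log2 fold of high over low IMF from edgeR for each gene, with the SE as a bar, the 6 fits that leave out a library as ticks and the fit with low IMF replicates 2 and 3 summed as a diamond. NFKBIZ, RELB, NFKBIE and NFKB2 stay right of 0 and NFKBIA left of 0 in every fit shown, while ticks of TNFAIP3, NFKB1, BCL3 and RELA fall on both sides.

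The rest of the pathway was read from lists of textbook genes, and edgeR called none of their members at an adjusted p under 0.05. Some genes are in more than 1 list, so the counts of the lists are not independent. BIRC3, for example, is counted both among the adaptors and among the target genes. Among 16 other inhibitors and brakes tested, 14 had a positive log2 fold and the median was 0.27, beside 0.01 over all genes. At an unadjusted p under 0.05 edgeR had 3 on the higher side and 0 on the lower. Over all genes tested, 51.2% had a positive log2 fold, and at that level 4.53% were higher and 2.74% lower. DESeq2 called 1.16% of the genes with an adjusted p. The counts of each list below stand beside these shares. The deubiquitinase CYLD, which removes the ubiquitin chains that carry the signal, measured 91.6, 105.9 and 82.5 CPM in high IMF and 62.3, 71.7 and 68.4 CPM in low IMF libraries. NFKBID, a further nuclear inhibitor, measured 2.32, 2.98 and 6.84 CPM in high IMF and 1.17, 1.43 and 2.04 CPM in low IMF libraries, with high IMF replicate 3 far above the rest. PDLIM2, a ubiquitin ligase for nuclear RELA, measured 3.94 ± 0.0357 CPM in high and 2.51 ± 0.279 CPM in low IMF muscle. TRAFD1, a zinc finger protein that damps Toll-like receptor signalling, overlapped between the groups (32.1 ± 6.34 and 24.8 ± 2.26 CPM). NFKBIB, the beta form of the classical inhibitors, is an addition named after its values were seen. It overlapped between high and low IMF muscle (15.1 ± 2.72 and 18.2 ± 2.54 CPM), with a log2 fold of -0.27.

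Of 32 kinases and adaptors between receptor and inhibitor, 25 had a positive log2 fold with a median of 0.17, and at an unadjusted p under 0.05 there were 4 on the higher side and 0 on the lower. BIRC3 and TRAF3, which sit in the complex that holds MAP3K14 low, both had separate groups. TRAF2 and BIRC2 of the same complex, and MAP3K14, are additions named after their values were seen. TRAF2 had separate groups with a log2 fold of 0.23, and BIRC2 overlapped with a log2 fold of -0.17. MAP3K14 overlapped, with 48.5, 59.2 and 61.4 CPM in high IMF and 53.3, 38.1 and 31.0 CPM in low IMF libraries (log2 fold 0.47). BIRC3 measured 22.2, 19.0 and 18.2 CPM in high IMF and 8.59, 11.0 and 11.9 CPM in low IMF libraries (log2 fold 0.91; edgeR adjusted p = 0.504; DESeq2 adjusted p = 0.0232). TRAF3 measured 9.24, 17.9 and 10.3 CPM in high IMF and 4.79, 5.77 and 6.08 CPM in low IMF libraries, with high IMF replicate 2 highest as for NFKB2 (log2 fold 1.17; edgeR adjusted p = 0.51; DESeq2 adjusted p = 0.0494). IKBKE, an inducible kinase related to the core complex, measured 2.86 ± 0.625 CPM in high IMF and 1.43 ± 0.239 CPM in low IMF libraries.

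Of 11 ligands of the pathway tested, 9 had a positive log2 fold with a median of 0.74, and 2 were higher at an unadjusted p under 0.05, IL18 and CD40LG, both under 1 CPM in every library and named here for completeness. The alarmin IL33 leaned the other way, with 7.16, 11.9 and 3.04 CPM in high IMF and 5.67, 27.9 and 26.2 CPM in low IMF libraries. Low IMF replicate 1 of IL33 lay within the high IMF range. Lymphotoxin beta (LTB, 1.78 ± 0.976 and 0.836 ± 0.229 CPM), TNFSF10 (38.5 ± 17.0 and 52.3 ± 34.0 CPM) and TNFSF12 (18.2 ± 4.11 and 16.1 ± 0.907 CPM) overlapped between high and low IMF muscle.

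Of 20 receptors tested, 11 had a positive log2 fold, near the 51.2% of all genes, with a median of 0.33. At an unadjusted p under 0.05 there was 1 in each direction, beside 4.53% higher and 2.74% lower over all genes. NOD2, a sensor of bacterial cell wall, measured 9.32, 12.9 and 10.5 CPM in high IMF and 4.52, 6.45 and 7.61 CPM in low IMF libraries. TNFRSF1B, a receptor of TNF, measured 54.3, 45.7 and 30.4 CPM in high IMF and 79.2, 56.8 and 60.4 CPM in low IMF libraries, without overlap. The receptor of TNFSF12, TNFRSF12A (45.2 ± 24.3 and 23.9 ± 6.90 CPM), and the endotoxin co-receptor CD14 (13.1 ± 6.43 and 8.13 ± 3.29 CPM) overlapped between high and low IMF muscle.

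Of 34 textbook NF-kB target genes outside the family, 30 were listed and 26 tested. A positive log2 fold was seen in 20, with a median of 0.54, and at an unadjusted p under 0.05 there were 6 higher and 1 lower. The list's median level (log2 CPM minus each gene's mean over the libraries) overlapped between the groups. It was 0.36, 0.27 and -0.16 in high IMF and -0.25, -0.12 and -0.11 in low IMF replicates 1 to 3. CD83, a surface protein of activated immune cells, measured 7.49, 6.73 and 3.53 CPM in high IMF and 1.19, 2.09 and 2.02 CPM in low IMF libraries (log2 fold 1.75; edgeR adjusted p = 0.504; DESeq2 adjusted p = 0.00637). The chemokine CXCL10, which draws T cells, measured 8.26, 9.49 and 5.56 CPM in high IMF and 4.19, 1.75 and 1.90 CPM in low IMF libraries (DESeq2 adjusted p = 0.0334). The chemokine CX3CL1 overlapped, with 32.5 ± 8.59 CPM in high IMF and 21.6 ± 2.65 CPM in low IMF libraries. For CD83, CXCL10 and CX3CL1 high IMF replicate 3 was the lowest high IMF library. BCL2L1, a survival gene and the 1 target lower at that level, was singled out after its values were seen, with 55.5, 40.6 and 35.3 CPM in high IMF and 68.3, 59.4 and 60.0 CPM in low IMF libraries.

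Markers of leukocytes were set beside the genes that lay higher in high IMF muscle. Of 20 macrophage and myeloid markers, 18 had a positive log2 fold, the median was 1.15, and none was at 0 in any library. At an unadjusted p under 0.05 edgeR had 9 on the higher side and 0 on the lower, and DESeq2 called 1, the myeloid transcription factor gene SPI1. Their summed level was 462.2, 235.4 and 111.5 CPM in high IMF replicates 1 to 3 and 145.0, 130.5 and 126.7 CPM in low IMF replicates 1 to 3. The most abundant were LYZ (28.1 ± 12.7 and 30.0 ± 2.14 CPM) and LAPTM5 (35.4 ± 15.5 and 18.1 ± 5.11 CPM). High IMF replicate 1 had the highest and high IMF replicate 3 the lowest myeloid sum of the 6 libraries, and the part of these markers in the values of RELB, NFKBIE and NFKBIZ was not tested. Of 17 T and B lymphocyte markers tested, 15 had a positive log2 fold with a median of 1.50. There were 7 on the higher side and 0 on the lower at that unadjusted level, and DESeq2 called MZB1, a plasma cell gene. The 19 listed summed to 63.7, 35.1 and 32.0 CPM in high IMF and 29.3, 14.5 and 13.9 CPM in low IMF libraries. The most abundant were JCHAIN (8.39 ± 6.94 and 4.31 ± 0.763 CPM) and CD3D (4.63 ± 1.83 and 1.51 ± 1.31 CPM), and low IMF replicate 2 had 2 of the 19 at 0. The lymphocyte sum had the same separation of the groups as RELB, NFKBIE and NFKBIZ, and its part in their values was not tested.

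Genes induced by glucocorticoids were set beside NFKBIA, which is itself a known glucocorticoid target. Of 19 tested, 12 had log2 folds below 0, the median was -0.46, and at an unadjusted p under 0.05 edgeR had 7 on the lower side and 1 on the higher. The clock gene PER1 measured 105.8, 151.1 and 136.8 CPM in high IMF and 362.1, 393.4 and 368.4 CPM in low IMF libraries. SESN1 (112.4 ± 14.2 and 233.2 ± 33.6 CPM) and KLF15 (41.9 ± 16.8 and 113.8 ± 12.3 CPM) were likewise lower in high IMF muscle in all 3 libraries, whereas the kinase gene SGK1 lay the other way (40.2 ± 3.06 and 17.9 ± 5.39 CPM). DESeq2 called all 4 of these (adjusted p = 2.11e-08, 0.00065, 0.00129 and 0.011) and edgeR none (adjusted p = 0.263, 0.431, 0.504 and 0.504). The list's median level on the centred log2 scale was -0.16, -0.34 and -0.15 in high IMF and 0.06, 0.39 and 0.36 in low IMF replicates 1 to 3. The part of glucocorticoid signalling in the value of NFKBIA was not tested.

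Of 19 immediate early genes tested, 18 had a positive log2 fold and the median was 0.71. There were 3 on the higher side and 0 on the lower at an edgeR unadjusted p under 0.05. DESeq2 called EGR3 (adjusted p = 0.0334) and BTG2 (adjusted p = 0.0141). Low IMF replicate 1 stood apart in these genes of rapid stimulation. The immediate early genes had a median level of 1.05, 0.26 and 0.87 in high IMF replicates 1 to 3, and of -2.84, 0.34 and 0.22 in low IMF replicates 1 to 3. EGR3 measured 112.3, 82.9 and 105.4 CPM in high IMF and 2.69, 28.9 and 28.4 CPM in low IMF libraries, and BTG2 672.8, 124.9 and 287.0 CPM in high IMF and 16.1, 84.0 and 83.6 CPM in low IMF libraries. EGR2 (70.3 ± 18.6 and 21.9 ± 17.1 CPM) showed the same low value in low IMF replicate 1, and IER2 (137.1 ± 55.7 and 59.7 ± 30.2 CPM) overlapped between the groups. In low IMF replicate 1 NFKBIA and BCL3 had their highest value, and RELB, RELA, NFKB1, NFKB2 and NFKBIE their lowest. Without that library the log2 fold was 0.72 for RELB, 0.51 for NFKB2, 0.56 for NFKBIE, 0.90 for NFKBIZ and -0.38 for NFKBIA, and 3 of the 10 genes (RELB, NFKBIE and NFKBIZ) were at an unadjusted p under 0.05, beside 9.11% of all genes.

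Markers of fibroblasts, fat cells and vessels gave further differences between libraries. Of 10 fibroblast and progenitor markers 9 had a positive log2 fold, with 2 on the higher side and 0 on the lower at an unadjusted p under 0.05. They summed to 1697, 1483 and 411.9 CPM in high IMF and 542.9, 926.7 and 989.9 CPM in low IMF libraries, led by DCN (268.3 ± 172 and 253.4 ± 116 CPM) and COL3A1 (232.0 ± 190 and 86.7 ± 32.1 CPM). Of 8 adipocyte markers tested 7 had a positive log2 fold with a median of 2.16, FABP4 being the exception. The lipid droplet genes CIDEC and CIDEA and the lipogenic gene THRSP were the 3 on the higher side at that level, with 0 on the lower, and DESeq2 called CIDEA (adjusted p = 0.044). Adipocyte markers summed to 223.0, 638.5 and 75.6 CPM in high IMF and 143.6, 209.6 and 169.4 CPM in low IMF libraries, led by FABP4 (76.8 ± 36.6 and 109.5 ± 17.7 CPM) and ADIPOQ (67.1 ± 85.8 and 29.8 ± 24.1 CPM). High IMF replicate 2, the library with the highest NFKB2, also had the highest adipocyte sum, and high IMF replicate 3 the lowest; the part of these markers in the value of NFKB2 was not tested. Of 12 endothelial markers 11 had log2 folds below 0, with 3 on the lower side and 0 on the higher at that level, and DESeq2 called FLT1, a receptor of vascular growth factor. Endothelial markers summed to 1249, 1083 and 902.5 CPM in high IMF and 1476, 1361 and 1351 CPM in low IMF libraries, a separation in the direction of NFKBIA, and were led by EGFL7 (203.0 ± 54.6 and 232.5 ± 16.5 CPM) and VWF (135.3 ± 42.0 and 189.5 ± 58.2 CPM). Their part in the value of NFKBIA was not tested. Of 12 muscle fibre markers 10 had log2 folds below 0, with a median of -0.25 and 0 in either direction at that level. Their sums overlapped between the groups, with high IMF replicate 1 lowest, and their part in the values of the family was not tested.

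**Figure D5:**
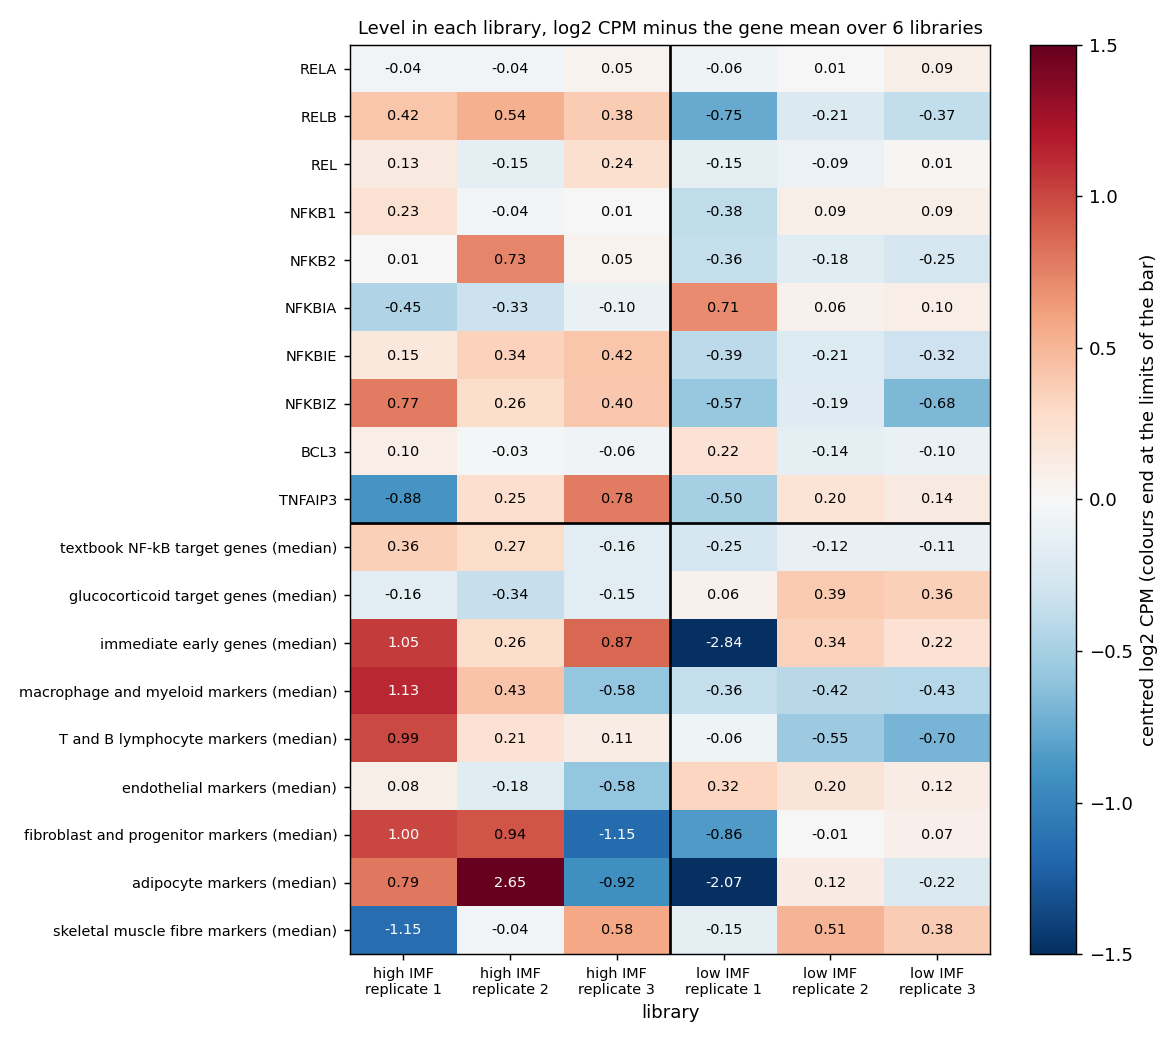
Level of each of the 10 genes (above the line) and the median level of each gene list (below it) in each library, as log2 CPM minus the mean over 6 libraries, with 0.5 CPM added for the lists; high IMF libraries are on the left. RELB, NFKBIE and NFKBIZ are positive in all 3 high IMF libraries and negative in all 3 low IMF libraries, and the immediate early genes are at -2.84 in low IMF replicate 1.

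The genes closest to RELB and NFKBIA in pattern were taken from 12036 named genes of at least 1 CPM, by the root mean square difference of centred log2 CPM over the 6 libraries. For RELB they were the condensin gene SMC2 (difference 0.087), the lipid transporter gene ABCA3 (0.11) and the RNA methyltransferase gene NSUN6 (0.12). ABCA3 measured 22.3, 27.8 and 28.1 CPM in high IMF and 11.1, 17.1 and 15.2 CPM in low IMF libraries. For NFKBIA they were MLLT6 (0.060), TBC1D17 (0.075) and AGAP2 (0.086). MLLT6 measured 138.1, 134.6 and 177.0 CPM in high IMF and 296.3, 197.5 and 192.0 CPM in low IMF libraries, with the same peak in low IMF replicate 1.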

How the data were processed

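Each deposited count is the whole number of reads the authors gave a gene. The submitters' processing notes name HISAT2 and mm9, a mouse build, while the deposited names and protein descriptions are of donkey and horse, so the genome aligned to is unknown and no coordinates are given. The sources used here do not give the counter, annotation or strand setting, so reads of overlapping genes cannot be told apart. The deposited FPKM was count per length and library total, per the file headers and a check (implied length varied by a median of 0.186% over libraries in 1936 genes above 20 FPKM). The deposited table also holds the authors' own comparison, as a fold ratio, a log2 fold, a p-value and an adjusted p-value, quoted only by name. Counts in the per-sample files equalled the table (0 cells differed).

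Counts were fitted over all genes with edgeR 4.0.16 (R 4.3.3), TMM normalization, filterByExpr (15933 genes kept) and the quasi-likelihood F-test, with Benjamini-Hochberg adjustment at 0.05. The fit was tested on simulated data. SE is the log2 coefficient divided by the square root of F. Alternatives used DESeq2 1.42.0 and limma 3.58.1. Of LOC numbers, 876 were matched to a symbol through a RefSeq gene table (EquAss-T2T_v2), for names only. The errors given as a percentage of a count cover counting error only, while the SE also holds the spread between libraries.

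The family, its lists and the tests were chosen with earlier results of these data known. Named are all 10 genes, up to 4 genes of smallest p and at least 1 CPM per pathway list, the 2 most abundant markers per cell type list, and the 3 genes nearest in pattern to the higher and the lower member of smallest p. IL18, CD40LG, SPI1, MZB1, FLT1, CIDEA, CIDEC and THRSP fall outside this rule and were named after their results were seen. Other names are said to be additions where they appear. The rule's remaining kinase and adaptor gene is not reported here. Not listed under these names were TNFSF11, CCL2, CCL20, CXCL1, CXCL2, CEBPB, MT2A, DUSP2, CD7, MYH7 and MYH1.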

Additional observations from a re-analysis of the deposited data

How the results depend on the processing

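The number of genes called was 0 in edgeR with all 6 libraries and 194 with the DESeq2 Wald test; with a library left out edgeR called 0 to 3, the 3 being without high IMF replicate 1. Of the 10 NF-kB genes, 0 were called by edgeR with all libraries or with any left out, and 2 (RELB and NFKBIZ) by DESeq2, where the number was 0 to 2 with a library left out, a run chosen after seeing the data. The 14 alternatives kept the direction of RELB, NFKBIZ, NFKBIE, NFKB2, NFKBIA and REL. Genes near 0 turned: RELA had a log2 fold of 0.12 with library size only, a scaling under which the all-gene median was 0.15 in place of 0.01, and -0.073 to 0.012 with a library left out. BCL3 had -0.0057 with DESeq2 size factors, -0.00692 with no low-count filter, -0.00776 in the DESeq2 Wald test, -0.0563 with low IMF replicates 2 and 3 summed, and -0.065 to 0.11 with a library left out. With a library left out NFKB1 had -0.029 to 0.20 and TNFAIP3 -0.19 to 0.54. With library size only, and so with that same shift of the all-gene median, NFKBIA had a log2 fold of -0.50 and an edgeR unadjusted p of 0.0791. Why these scalings differ was not tested. Same-numbered high and low IMF libraries had deviations correlated at 0.22, 0.20 and 0.04. These lay within the range of different-numbered libraries, -0.24 to 0.24, and the numbers were not taken as pairs. With the replicate number as a block edgeR called 0 genes and 0 of the 10. In that fit 4 of the 10 were at an unadjusted p under 0.05 (NFKBIA 0.052). The log2 differences of the within-library ratios between high and low IMF were the same to 2 decimals from raw counts, while the ratios themselves, without the length scaling, had other values. Depth put counting error at no more than 6.55% of a count of these genes.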
